A study of Homo sapiens with 4 samples.

Results

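Intermediate filaments are the third filament system of animal cells beside actin filaments and microtubules. Cytoplasmic filaments are built from proteins such as vimentin, nestin and the keratins, while the lamins form a meshwork under the inner nuclear membrane, and plakins such as plectin tie filaments to each other and to the membrane. A keratin filament needs a type I and a type II keratin as partners, and KRT8 with KRT18 is known as the pair of simple epithelia and of the early embryo. Embryonic stem cells are known for B-type lamins with little lamin A.

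The RNA of 9 genes of this system was compared between 2-D and 3-D grown Elf1 cells, a naïve human embryonic stem cell (ESC) line. The 9 genes were a list of gene names given by their place in this system, and all 9 were found among the 60564 genes of the count files. They are the type III filament gene VIM (vimentin), the progenitor filament gene NES (nestin), the keratins KRT8, KRT18 and KRT19, the lamin genes LMNA, LMNB1 and LMNB2, and PLEC (plectin).

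Per the labels, the 2-D grown cells were adherent cultures on plates with a Matrigel coat, and the 3-D grown cells had been encapsulated as single cells in scaffolds of PEG-8-SH with PEG-8-Acr and cultured for 21 days. The study's methods also describe routine growth of the line on mouse embryonic feeder cells. Both were kept in the same ESC expansion medium, and each condition had 2 independent biological replicates of the single line, so all values are of this line alone. The labels give no culture time for the 2-D cells, so the scaffold and the length of culture cannot be told apart. Expression is given as normalized CPM, the part of a library's counts that falls on a gene after TMM scaling between libraries, and each log2 fold change sets 3-D over 2-D. An error after ± is an SD over 2 replicates, and SE is the standard error of the fitted log2 value.

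Library totals were 30114220 and 33833778 counts in 2-D and 18276147 and 21154409 in 3-D grown cells, and the 9 genes had between 1036 and 21109 counts in a library. The 7 pluripotency markers examined, POU5F1, NANOG and SOX2 among them, summed to 4768 and 4738 normalized CPM in 2-D and 4968 and 4887 in 3-D grown cells, with DNMT3B called higher. The naïve markers were low in both conditions, with sums of 53.7 to 57.6, and KLF17 did not exceed 1.07 normalized CPM. Endoderm markers summed to 5.78 and 6.30 in 2-D and 7.49 and 7.87 in 3-D grown cells. Mesoderm markers summed to 55.3 and 55.1 in 2-D and 60.3 and 60.4 in 3-D grown cells. After TMM scaling, neither sum overlapped between the conditions, nor did the sums of the pluripotency and fibroblast markers. When libraries were scaled by size alone, the pluripotency sums of 3-D grown cells were not above those of 2-D grown cells. The fibroblast sums then overlapped. Among single genes, the libraries of the conditions did not overlap in 50.5% of all genes tested. The most expressed genes of the endoderm and mesoderm lists, GATA4 and MIXL1, did overlap. GATA6 of the endoderm list had a log2 fold change of 1.0 and HAND1 of the mesoderm list of 0.98, without passing edgeR's quasi-likelihood test (BH-adjusted p = 0.0516 and 0.0695). Both rested on few counts, 27 to 48 in a library for GATA6 and 21 to 26 for HAND1. The log2 fold changes of GATA4, MIXL1 and TBXT were 0.18, 0.06 and 0.19, and SOX17, FOXA2 and MESP1 were too low to be tested. The part of these markers in the values of the 9 genes was not tested. Markers of neural cells summed to between 9.57 and 10.8, and of trophoblast and amnion to between 4.41 and 5.13, with CGA and VGLL1 at 0 counts in all libraries. Fibroblast markers, a list of 8 genes, summed to 541 and 533 in the 2-D libraries and to 552 and 603 in 3-D replicates 1 and 2, although DCN stayed at or under 0.19 and LUM at or under 0.95. Of the 6 fibroblast markers that passed the filter on low counts, 4 had an adjusted p below 0.05 and were higher in 3-D grown cells, namely COL1A1, COL3A1, POSTN and THY1. Of all genes tested, 4.54% were higher with such a p. COL1A2, the most expressed of the list, overlapped between the conditions with a log2 fold change of −0.04. PDGFRB also overlapped, with 0.02. In bulk RNA, a different share of cells of one kind and a different amount of RNA per cell cannot be told apart.

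Of the 9 genes, 7 had a positive log2 fold change and 2 a negative one, or 4 and 5 when libraries were scaled by size alone, and the differences were small. KRT8 was the one gene that passed the test, with 10.8% more RNA in 3-D grown cells. That is 11.1% of the 9 genes, beside 7.90% of all 22555 genes tested that were called in either direction, 4.54% higher and 3.36% lower in 3-D grown cells, so the share called among the 9 genes was near that of all genes. The balance of the calls over all genes depended on the scaling, with 1024 higher and 758 lower here but 514 higher and 1879 lower when libraries were scaled by size alone. A gene is called when its p, adjusted by the Benjamini-Hochberg (BH) method over all genes tested, is below 0.05 in edgeR's quasi-likelihood test. Before adjustment, 4 of the 9 genes had a p below 0.05. The share of all genes tested with such a p was not computed, so this count has no background to be read against. After TMM scaling, both 3-D libraries lay above both 2-D libraries in 7 genes, both 2-D libraries above in 1 gene, LMNA, and the conditions overlapped in LMNB1. When libraries were scaled by size alone, both 3-D libraries stayed above in KRT8 and KRT19. KRT18, VIM, PLEC and LMNB2 then overlapped, and both 2-D libraries lay above in NES and LMNB1 as well as LMNA. With TMM scaling, the libraries of the conditions did not overlap in 50.5% of all genes tested. The median log2 fold change of the 9 genes was 0.06, or −0.0002 when libraries were scaled by size alone, and their median absolute change of 0.06 was below that of all genes tested, 0.13. The 9 genes had at least 1036 counts in a library, while all genes tested include genes with far fewer. Genes of a like level were not compared. Together the 9 genes took 0.313% and 0.311% of the counts in the 2-D libraries against 0.308% and 0.322% in the 3-D libraries.

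**Figure D1:**
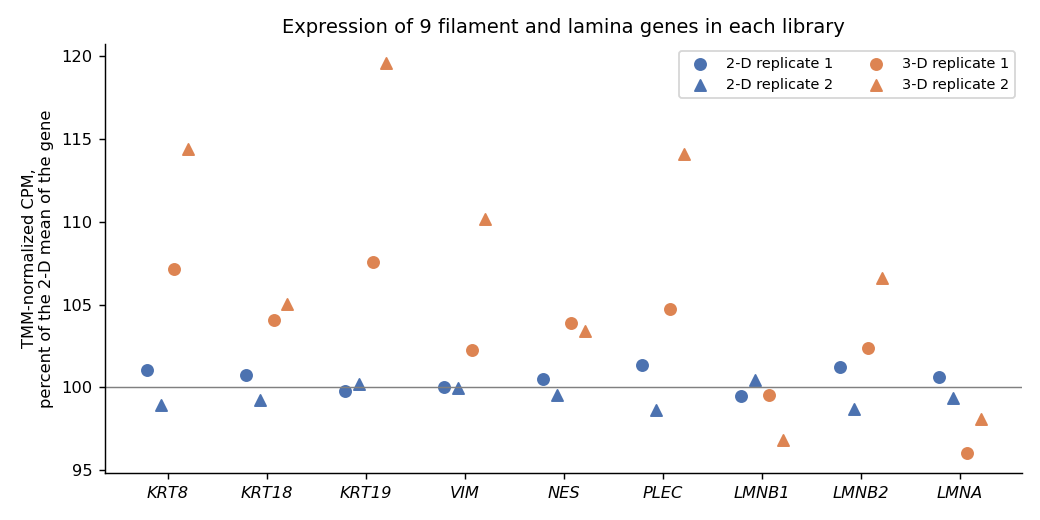
TMM-normalized CPM of the 9 genes in each library, as a percent of the gene's 2-D mean (vertical axis). Circles are replicate 1 and triangles replicate 2, blue for 2-D and orange for 3-D grown cells, and the grey line is the 2-D mean. The 3-D points of KRT8, KRT19, VIM and PLEC lie apart from each other, while all 2-D points stay close to the line.

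The 3-D replicates differed more from each other than the 2-D replicates did in these genes. The higher of the replicates exceeded the lower by a median of 1.26% over the 9 genes in 2-D and of 4.09% in 3-D grown cells. The gap between the 3-D replicates was 11.1% for KRT19, 8.93% for PLEC, 7.72% for VIM and 6.72% for KRT8, and under 1% for KRT18 and NES. The same library, 3-D replicate 2, was the higher one in 7 of the 9 genes, whereas it was the higher one in 49.9% of all genes tested. It is also the library with the highest sum of fibroblast markers and the fewest counts. Their part in the values of the 9 genes was not tested.

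Among the keratins, KRT8 encodes the type II partner of KRT18. It lies on the minus strand of chromosome 12 (hg38, chr12:52897187-52949954). Its expression was 613 and 600 normalized CPM in the 2-D libraries against 650 and 694 in the 3-D libraries. Both 3-D libraries lay above both 2-D libraries, with means of 671.9 ± 30.9 and 606.6 ± 9.0 (n = 2 each). The log2 fold change of 0.15 (SE 0.04) passed edgeR's quasi-likelihood test (BH-adjusted p = 0.0224). KRT8 passed in 14 of 18 alternative settings, with log2 fold changes between 0.08 and 0.19. It was not called without 2-D replicate 2 (0.13, adjusted p = 0.158 by the same test) or when libraries were scaled by size alone (0.08, adjusted p = 0.188).

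KRT18, the type I partner, lies head to head with KRT8 on the plus strand (chr12:52948871-52952906). It had 448 and 441 normalized CPM in the 2-D libraries against 463 and 467 in the 3-D libraries. The conditions did not overlap, and the means were 444.7 ± 4.76 and 465.0 ± 2.90 (n = 2 each). The log2 fold change of 0.06 (SE 0.03) did not pass edgeR's quasi-likelihood test (BH-adjusted p = 0.235) and became −0.0002 when libraries were scaled by size alone. The annotated spans of KRT8 and KRT18 share 1084 bases, 525 of them exonic in both, which is 7.63% of the exon bases of KRT8 and 17.1% of those of KRT18. The shared bases lie outside the representative transcript of KRT8 (MANE Select), whose start is 44042 bases from that of KRT18. The sources used here do not state whether the counting used strand, so reads from these bases could count for either gene or for neither.

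KRT19 is the type I keratin that lacks the usual tail domain, and it lies on the minus strand of chromosome 17 (chr17:41523617-41528308). It was the least expressed of these keratins, also per length, with 48.2 and 48.5 normalized CPM in the 2-D libraries against 52.0 and 57.8 in the 3-D libraries. The 2-D libraries lay within 0.454% of each other, and 3-D replicate 2 stood above 3-D replicate 1. The means were 48.3 ± 0.155 and 54.9 ± 4.09 (n = 2 each). Its log2 fold change of 0.18 (SE 0.05) did not pass edgeR's quasi-likelihood test (BH-adjusted p = 0.0555). Without 3-D replicate 1 it was 0.26, and the values of the alternatives reached down to 0.11.

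The proportion of the keratins was compared as a ratio of counts per kilobase of merged exons in each library. The ratio of KRT8 to KRT18 was 0.610 and 0.607 in the 2-D libraries against 0.626 and 0.663 in the 3-D libraries, a mean log2 difference of 0.08 (SDs of 0.00596 in 2-D and 0.0573 in 3-D). This difference was 0.04 without 3-D replicate 2. The ratio of KRT19 to KRT18 was 0.141 and 0.144 in 2-D and 0.148 and 0.163 in 3-D, a mean log2 difference of 0.12. Leaving out 3-D replicate 1 gave 0.19, and leaving out 3-D replicate 2 gave 0.05. Both ratios were higher in the 3-D libraries without overlap, with an exact two-sided permutation p of 0.333, the smallest that 2 against 2 libraries can give. These ratios do not depend on the scaling between libraries. Their size does depend on the length used, and with the length of the MANE Select transcript, the representative transcript of a gene, KRT8 exceeded KRT18 in every library (1.083 and 1.077 in 2-D, 1.112 and 1.177 in 3-D).

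**Figure D2:**
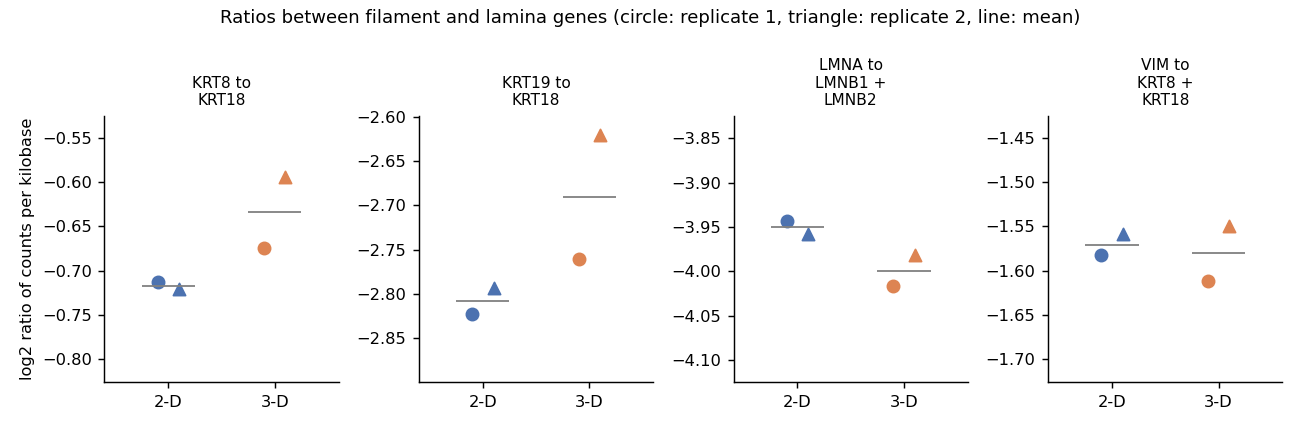
Ratios of counts per merged exon kilobase in each library, on a log2 axis that spans the same width in all panels. Blue is 2-D and orange 3-D, circles are replicate 1, triangles replicate 2, and grey lines are means of 2 replicates. KRT8 and KRT19 relative to KRT18 were higher in both 3-D libraries, LMNA relative to the B-type lamins was lower, and VIM relative to KRT8 and KRT18 overlapped.

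KRT8 and KRT18 have many processed pseudogenes, copies of the messenger RNA in the genome, whose reads can be hard to place. The annotation lists 51 pseudogenes of KRT8, 67 of KRT18 and 5 of KRT19, and 72 of these 123 had counts. The KRT8 pseudogenes held counts equal to between 2.58% and 3.00% of those of KRT8 in a library, and the KRT18 pseudogenes between 1.35% and 1.89% of those of KRT18. With these counts added to the parent genes, KRT8 was still called.

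Of the 17 pseudogenes tested 1 was called, where 7.90% of all genes tested were called. It is KRT8P12, a transcribed pseudogene on the plus strand of chromosome 3 (chr3:160565447-160569248). It had 4.79 and 4.41 normalized CPM in the 2-D libraries against 8.37 and 8.59 in the 3-D libraries, from 136 to 172 counts. The conditions were far apart for its replicate spread, with a log2 fold change of 0.88 (SE 0.12, edgeR's quasi-likelihood test, BH-adjusted p = 7.79e-04). It was called in each of the 16 alternatives that gave it an adjusted p, and DESeq2 gave none. Over the aligned part, the KRT8P12 transcript (1397 bases) and the KRT8 coding sequence (1452 bases) were identical at 86.1% of 1459 alignment columns, with 132 mismatches and a longest identical run of 53 bases. None of the 1248 stretches of 150 bases in the KRT8P12 transcript, the length of a read, occurs in the KRT8 transcript without a difference. How reads with mismatches were placed was not tested, and exon bases of KRT8P12 outside this transcript were not compared.

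The exons of KRT8P12, 2047 bases in all, also share 125 bases with KPNA4, an importin gene on the opposite strand. KPNA4 had 228 and 233 normalized CPM in 2-D and 224 and 232 in 3-D grown cells, which overlap (log2 fold change −0.01, edgeR's quasi-likelihood test, BH-adjusted p = 0.849).

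VIM, whose protein forms the filaments of mesenchymal and many cultured cells, lies on the plus strand of chromosome 10 (chr10:17228241-17237593). It had 406.3 and 406.1 normalized CPM in the 2-D libraries against 415 and 448 in the 3-D libraries. The 2-D libraries were within 0.0631% of each other, and 3-D replicate 2 alone stood well above them. The means were 406.2 ± 0.181 and 431.5 ± 22.7 (n = 2 each), and the log2 fold change of 0.09 (SE 0.04) did not pass edgeR's quasi-likelihood test (BH-adjusted p = 0.184). It was 0.14 and called without 3-D replicate 1 (adjusted p = 1.38e-04 by the same test), and 0.03 without 3-D replicate 2. The sum of the fibroblast markers was 552 in 3-D replicate 1 and 603 in 3-D replicate 2, and its part in the VIM values was not tested.

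Relative to the main keratin pair, VIM did not separate the conditions. The ratio of VIM to the sum of KRT8 and KRT18, in counts per merged exon kilobase, was 0.334 and 0.340 in the 2-D libraries against 0.327 and 0.342 in the 3-D libraries. The mean log2 difference was −0.01, with an exact two-sided permutation p of 1.0, and it turned to 0.02 without 3-D replicate 1 and to 0.0019 without 2-D replicate 2.

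The VIM locus also carries annotated genes on the opposite strand. The lncRNA ENSG00000234961 (chr10:17233325-17234833) shares 619 bases with VIM exons, 87.7% of its own exon length, and had counts equal to between 31.8% and 34.1% of those of VIM. It had 129 and 131 normalized CPM in the 2-D libraries against 142 and 150 in the 3-D libraries. These did not overlap, and the lncRNA was called higher, with a log2 fold change of 0.16 (SE 0.03, edgeR's quasi-likelihood test, BH-adjusted p = 0.00944), though not without 2-D replicate 1 (0.15, adjusted p = 0.0561) or when libraries were scaled by size alone (0.10, adjusted p = 0.0987). VIM-AS1 shares 656 bases with VIM exons and had counts equal to between 16.4% and 16.8% of those of VIM. Its log2 fold change was 0.09 (edgeR's quasi-likelihood test, BH-adjusted p = 0.318). Without knowing whether the counting used strand, reads of VIM and of these genes cannot be told apart.

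NES, the filament protein of neural and other progenitors, lies on the minus strand of chromosome 1 (chr1:156668763-156677407). It had 583 and 577 normalized CPM in the 2-D libraries against 602 and 599 in the 3-D libraries. The conditions did not overlap and the replicates were close in both, with means of 579.6 ± 4.05 and 600.8 ± 1.99 (n = 2 each). The log2 fold change of 0.05 (SE 0.03) did not pass edgeR's quasi-likelihood test (BH-adjusted p = 0.347). It became −0.01 when libraries were scaled by size alone and also with length and GC offsets.

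PLEC encodes plectin, a very large plakin that links intermediate filaments to actin, to hemidesmosomes and to the nuclear envelope. It lies on the minus strand of chromosome 8 (chr8:143915153-143976734) and has the longest exons and the highest GC content of the 9 genes, with 16992 merged exon bases and 67.0% GC in its longest transcript. It had 299 and 291 normalized CPM in the 2-D libraries against 308 and 336 in the 3-D libraries. The conditions did not overlap, and 3-D replicate 2 stood above the other 3 libraries. The means were 294.5 ± 5.70 and 322.2 ± 19.5 (n = 2 each). The log2 fold change of 0.13 (SE 0.04) did not pass edgeR's quasi-likelihood test (BH-adjusted p = 0.0659). It was 0.19 without 3-D replicate 1, 0.06 when libraries were scaled by size alone and 0.05 with length and GC offsets.

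The lamin genes differed by at most 0.06 on the log2 scale. LMNB1, a B-type lamin that keeps its lipid anchor in the membrane, lies on the plus strand of chromosome 5 (chr5:126776623-126837020). It had 335 and 338 normalized CPM in the 2-D libraries against 335.0 and 326 in the 3-D libraries. The conditions overlapped, with means of 336.5 ± 2.38 and 330.5 ± 6.48 (n = 2 each) and a log2 fold change of −0.03 (SE 0.03, edgeR's quasi-likelihood test, BH-adjusted p = 0.703).

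LMNB2, the other B-type lamin gene, lies on the minus strand of chromosome 19 (chr19:2427638-2456959). It had 266 and 259 normalized CPM in the 2-D libraries against 269 and 280 in the 3-D libraries. The conditions did not overlap, but the lower 3-D library was close to the higher 2-D library. The means were 262.5 ± 4.79 and 274.3 ± 7.77 (n = 2 each), and the log2 fold change of 0.06 (SE 0.03) did not pass edgeR's quasi-likelihood test (BH-adjusted p = 0.289). It was 0.09 without 3-D replicate 1, and −0.0008 when libraries were scaled by size alone.

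LMNA encodes lamins A and C, the lamins whose amount is known to be higher in stiff tissues. It lies on the plus strand of chromosome 1 (chr1:156082573-156140081), 528682 bases from NES. It had 74.9 and 73.9 normalized CPM in the 2-D libraries against 71.4 and 73.0 in the 3-D libraries. After TMM scaling it was the one gene of the 9 with both 2-D libraries above both 3-D libraries, with means of 74.4 ± 0.661 and 72.2 ± 1.09 (n = 2 each). The log2 fold change of −0.04 (SE 0.04) did not pass edgeR's quasi-likelihood test (BH-adjusted p = 0.55). It was below 0 in all 18 alternatives, between −0.12 and −0.01.

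The ratio of LMNA to the B-type lamins, LMNB1 and LMNB2 together, was 0.0650 and 0.0644 in the 2-D libraries against 0.0618 and 0.0633 in the 3-D libraries, in counts per merged exon kilobase. The mean log2 difference was −0.05 with an exact two-sided permutation p of 0.333, the smallest possible here, and it was −0.03 without 3-D replicate 1. With the MANE Select length the ratio was 0.136 and 0.135 in 2-D and 0.129 and 0.133 in 3-D grown cells, so the B-type lamins outweighed LMNA in every library with either length. LMNB2 relative to LMNB1 was 0.535 and 0.516 in 2-D and 0.540 and 0.578 in 3-D grown cells (exact two-sided permutation p of 0.333).

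**Figure D3:**
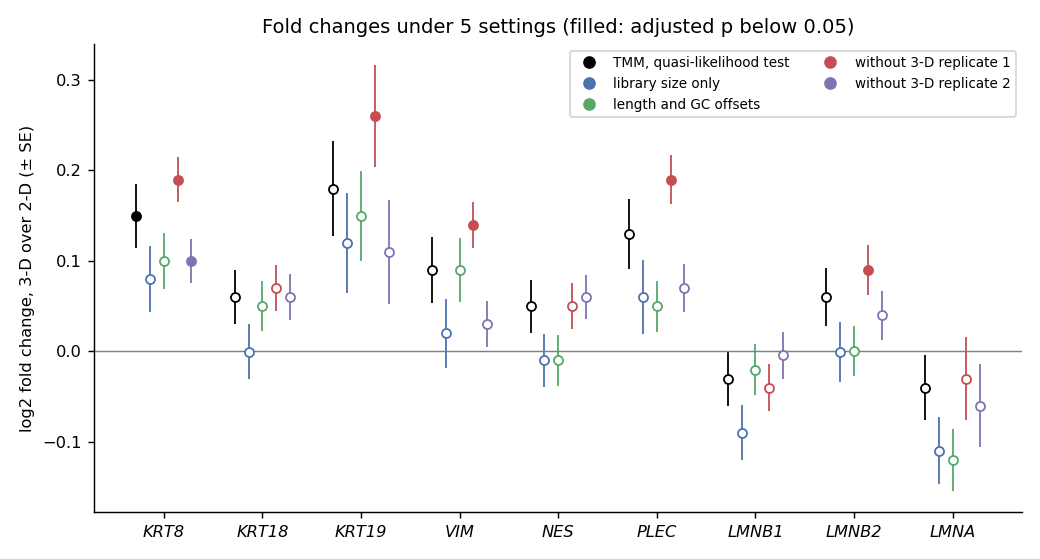
Log2 fold change, 3-D over 2-D (vertical axis, bars are ± SE) for each gene under 5 settings, filled where the adjusted p is below 0.05. Where a 3-D replicate is left out, the spread comes from the 2-D pair alone. KRT8 is filled in 3 of the 5, KRT19, VIM, PLEC and LMNB2 without 3-D replicate 1 alone, and NES, KRT18 and LMNB2 fall to 0 or slightly below when libraries were scaled by size alone.

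Levels can be compared between genes per length. Per kilobase of merged exons, the mean level over the 4 libraries was 148 normalized CPM for KRT18, 106.0 for NES, 92.9 for KRT8, 91.8 for LMNB1, 80.9 for VIM, 49.8 for LMNB2, 22.1 for KRT19, 18.2 for PLEC and 9.0 for LMNA. The ranges over the libraries separated all neighbours in this order except KRT8 and LMNB1. KRT18 was at the 99.1th percentile of the genes tested on this scale, NES, KRT8, LMNB1 and VIM were above the 98th, and LMNA was at the 77.1th.

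The order depended on the length, because the merged exons hold alternative first exons and other exons that the common transcripts of some genes lack. Per kilobase of the MANE Select transcript, KRT8 had the highest level with 358 normalized CPM, followed by KRT18 with 322, VIM with 194, LMNB1 with 115, NES with 106.0, LMNB2 with 57.9, KRT19 with 37.1, LMNA with 23.1 and PLEC with 20.8. On this scale the ranges of LMNA and PLEC overlapped and those of all other neighbours did not. KRT8 has 6881 merged exon bases and a MANE Select transcript of 1784 bases, and LMNA has 8141 and 3178, whereas NES has 5568 by either measure. This alternative was chosen after seeing the data.

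**Figure D4:**
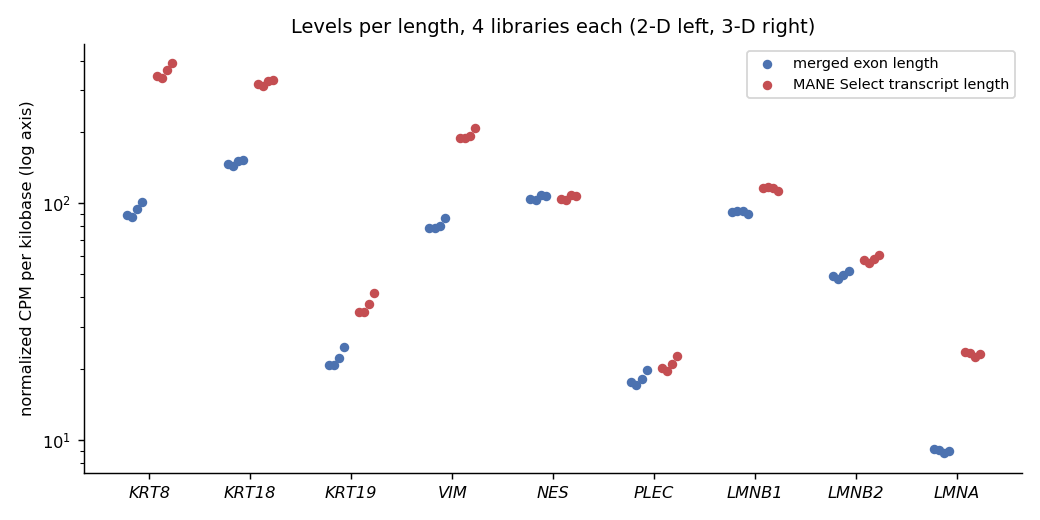
Normalized CPM per kilobase (log axis) of each gene in the 4 libraries, 2-D replicates 1 and 2 then 3-D replicates 1 and 2 from left to right, per merged exon length (blue) and per MANE Select transcript length (red). With either length LMNA stays far below LMNB1 and LMNB2, and the order of KRT8 and KRT18 changes.

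In the rest of the cytoplasmic filament family the other keratins were sparse, while SYNC had more normalized CPM than KRT19 in every library. VIM, NES, KRT8, KRT18 and KRT19 held between 89.4% and 90.01% of the counts of 68 cytoplasmic intermediate filament genes in each library. Of the 52 other keratin genes, 37 had 0 counts in all 4 libraries and 4 passed the filter on low counts, KRT7, KRT10, KRT15 and KRT17. edgeR's quasi-likelihood test called 0 of these 4, and 0 had an unadjusted p below 0.05. DESeq2 and limma-trend also called 0. KRT7, a keratin of simple epithelia and trophoblast, had 2.09 and 2.24 normalized CPM in the 2-D libraries against 2.43 and 2.57 in the 3-D libraries (log2 fold change 0.21, edgeR's quasi-likelihood test, BH-adjusted p = 0.6).

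Of the 10 other cytoplasmic filament genes tested, 9 were on the higher side in 3-D grown cells and 8 when libraries were scaled by size alone. Their median log2 fold change was 0.27, and 2 were called higher and 1 lower. The calls are 30% of these 10 genes, beside 7.90% of all genes tested, 4.54% higher and 3.36% lower. NEFH, the heavy neurofilament subunit, had 29.1 and 27.1 normalized CPM in the 2-D libraries against 37.9 and 36.7 in the 3-D libraries, a log2 fold change of 0.41 (SE 0.06, edgeR's quasi-likelihood test, BH-adjusted p = 0.00191) that was called in all 18 alternatives. NEFM, the medium subunit, had 11.0 and 10.6 in 2-D and 14.2 and 13.9 in 3-D grown cells (log2 fold change 0.38, edgeR's quasi-likelihood test, BH-adjusted p = 0.0189), and was not called without 2-D replicate 2 (0.35, adjusted p = 0.116). NEFL, the light subunit on which neurofilaments assemble, had 14.4 and 14.5 in 2-D and 15.1 and 14.9 in 3-D grown cells, a log2 fold change of 0.05 that did not pass edgeR's quasi-likelihood test (BH-adjusted p = 0.794). The neural markers examined summed to 10.8 and 9.57 normalized CPM in 2-D and 9.73 and 9.87 in 3-D grown cells, and their part in these values was not tested.

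SYNC, which binds other filament proteins in muscle, fell from 122 and 121 normalized CPM in the 2-D libraries to 111 and 107 in the 3-D libraries, a log2 fold change of −0.16 (SE 0.03, edgeR's quasi-likelihood test, BH-adjusted p = 0.0069). It was not called without 2-D replicate 1 (adjusted p = 0.057) or 2-D replicate 2 (adjusted p = 0.0501 by the same test), and 15 of 18 alternatives called it. DES, the desmin of muscle, had 3.28 and 3.41 normalized CPM in 2-D and 3.41 and 5.36 in 3-D grown cells, with 3-D replicate 2 alone above the 2-D libraries, and the log2 fold change of 0.38 did not pass edgeR's quasi-likelihood test (BH-adjusted p = 0.30).

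Beside PLEC, all 6 other plakins tested had a positive log2 fold change, or 4 of the 6 under scaling by size alone or with length and GC offsets. Their median was 0.11, or 0.05 under scaling by size alone, and 2 were called. That is 33.3% of the 6, beside 7.90% of all genes tested. DSP, the desmoplakin that anchors keratin filaments at desmosomes, had 707 and 696 normalized CPM in the 2-D libraries against 779 and 784 in the 3-D libraries. The replicates were close in both conditions, and the log2 fold change was 0.16 (SE 0.03, edgeR's quasi-likelihood test, BH-adjusted p = 0.00613). PPL, periplakin, had 64.0 and 62.1 in 2-D and 69.4 and 71.5 in 3-D grown cells (log2 fold change 0.16, edgeR's quasi-likelihood test, BH-adjusted p = 0.0226). Without 2-D replicate 2 neither was called (DSP 0.15 with adjusted p = 0.0861, PPL 0.14 with adjusted p = 0.281 by the same test), nor was either when libraries were scaled by size alone. PPL was also not called without 2-D replicate 1 (0.18, adjusted p = 0.0728) or 3-D replicate 2 (0.14, adjusted p = 0.0652), or with length and GC offsets (0.09, adjusted p = 0.161). In all, 15 of 18 alternatives called DSP and 10 of 18 called PPL.

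At the nuclear envelope, the LINC complex joins the lamina to the cytoskeleton through SUN proteins and nesprins. Of its 6 genes, 0 were called by edgeR's quasi-likelihood test, 0 had an unadjusted p below 0.05, and DESeq2 and limma-trend called 0. The median was 0.05, or −0.02 under scaling by size alone. SUN1, which binds A-type lamins, had 123 and 119 normalized CPM in 2-D and 120 and 123 in 3-D grown cells (log2 fold change 0.0032, SE 0.03). The log2 fold changes were 0.03 for SUN2 (SE 0.10), −0.06 for the nesprin gene SYNE1 (SE 0.13) and 0.06 for SYNE2 (SE 0.04). Without 3-D replicate 2 the value of SYNE2 was 0.11.

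A further list, called lamina partners here, held genes of the lamina, the nuclear envelope and the torsin system. Of its 11 tested genes, 3 were on the higher and 8 on the lower side in 3-D grown cells. Of these, 1 was called higher and 2 were called lower, which is 27.3% of the 11 beside 7.90% of all genes tested. The median was −0.04 and stayed below 0 under each scaling. EMD, the emerin that binds lamin A, had 68.3 and 67.3 normalized CPM in the 2-D libraries against 77.1 and 81.0 in the 3-D libraries. Both 3-D libraries lay above both 2-D libraries, and the log2 fold change of 0.22 (SE 0.04, edgeR's quasi-likelihood test, BH-adjusted p = 0.00353) was called in all 18 alternatives. LBR, the lamin B receptor, fell from 164 and 165 normalized CPM in 2-D to 152 and 150 in 3-D grown cells, a log2 fold change of −0.12 (SE 0.03, edgeR's quasi-likelihood test, BH-adjusted p = 0.0218). TOR1AIP2, a membrane partner of torsins, fell from 199 and 202 to 185 and 182, a log2 fold change of −0.13 (SE 0.03, edgeR's quasi-likelihood test, BH-adjusted p = 0.0182). Neither fall was called without 2-D replicate 1 (adjusted p = 0.162 for LBR and 0.106 for TOR1AIP2) or without 2-D replicate 2 (0.228 and 0.235 by the same test). DESeq2 and the likelihood ratio test called neither, and in all 12 of 18 alternatives called LBR and 14 of 18 called TOR1AIP2.

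The enzymes that process the CaaX end of prelamin A and the B-type lamins were not called. edgeR's quasi-likelihood test gave 0 calls and 0 unadjusted p below 0.05 among the 5 genes, and DESeq2 and limma-trend gave 0 calls. ZMPSTE24, the protease that matures prelamin A, had 108 and 110 normalized CPM in the 2-D libraries against 110 and 104 in the 3-D libraries, which overlap (log2 fold change −0.03, SE 0.03).

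**Figure D5:**
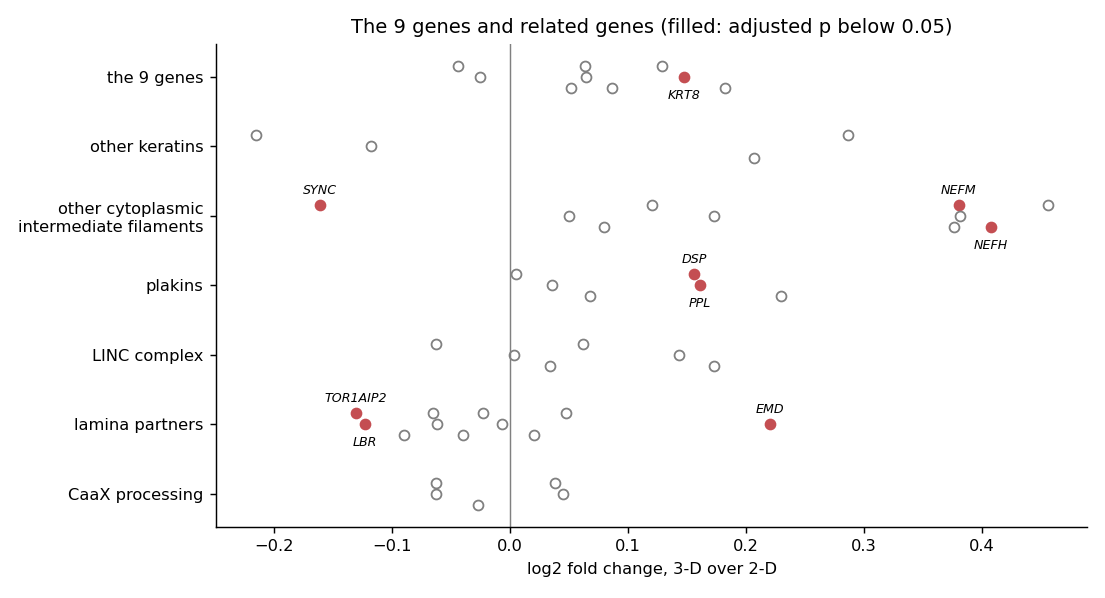
Log2 fold change, 3-D over 2-D (horizontal axis) for the 9 genes and the tested genes of 6 related lists, 1 point a gene, filled red where the adjusted p is below 0.05. KRT8, NEFM, NEFH, DSP, PPL and EMD are filled on the higher side, and SYNC, TOR1AIP2 and LBR on the lower side.

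The RefSeq promoter table for GRCh38.p14 holds a window around the MANE Select start of NES, LMNB1, VIM and LMNB2. KRT8 and LMNA are listed at other starts, and KRT18, KRT19 and PLEC have no entry. The GC box letters GGGCGG occurred on either strand 4 times each in the windows of NES and LMNB1 and 1 time each in those of VIM and LMNB2, and 45% of all 35116 windows in the table hold them. The TATA box letters TATAAA occurred in none of these 4 windows and in 11.5% of all. The same was true of the AP-1 letters TGANTCA, held by 7.71% of all windows. It was also true of the TEAD letters CATTCC, held by 14% of all windows and by the KRT8 window at its other start, and of the CArG box of serum response factor, held by 1.29%. A match or its absence is a description of the letters in these windows.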

How the data were processed

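RNA of 2-D and 3-D grown Elf1 cells was depleted of ribosomal RNA and sequenced with paired ends of 150 bases by the authors, who trimmed reads with Trim Galore 0.6.3, aligned them to hg38 with HISAT2 2.1.0 and counted them per GENCODE gene with featureCounts 1.6.4. The strand setting and the treatment of multi-mapping reads are not given in the sources used here. The deposited counts are integers per gene and library, without normalization or pooling. The authors also deposited a signal per library, the counts divided by DESeq2 size factors, and their own comparison, which holds log2 fold changes, their errors and Wald statistics as scores, and p-values, none of which were used.

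Of 60564 genes, 60295 were matched to symbols of GENCODE release 44, and the rest held 0.122% of the counts. Counts were tested with edgeR 4.0.16 in R 4.3.3 (TMM, filterByExpr with 22555 genes kept, quasi-likelihood test in legacy mode, condition alone, Benjamini-Hochberg adjustment, threshold 0.05). The SE is the size of the log2 fold change over the square root of F. The biological coefficient of variation was 5.10%. Replicates differed beyond sampling noise (chi-square per degree of freedom 2.45 in 2-D and 4.39 in 3-D). Ratios used an exact permutation test. Alternatives were DESeq2 1.42.0 and its size factors, the likelihood ratio test, limma-trend (limma 3.58.1) on log2 of the deposited signal plus 1, other scalings and filters, length and GC offsets (splines with 5 degrees of freedom), thinned 2-D libraries, a replicate block, pseudogene counts added to parents, and each library left out. The test without legacy mode and the MANE Select length were chosen after seeing the data.

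The 9 genes and the related lists were chosen with earlier results of these data known. Named beside the 9 are every called gene of a related list, EMD, LBR, SUN1, SUN2, SYNE1, SYNE2, DSP, KRT7, DES, NEFL and ZMPSTE24, and the pseudogenes and overlapping genes with the most counts. KPNA4, GATA6, HAND1 and the other marker genes singled out were named after their values were seen. The code was tested on simulated data. Python 3.11.15 with pandas 2.3.3 and biopython 1.88 made the tables, and matplotlib 3.10.9 the figures. One sequence is not reported here.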

Additional observations from a re-analysis of the deposited data

How the results depend on the processing

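Of 162 values of the 9 genes under 18 alternatives, 143 kept their direction and side of the threshold. The log2 fold change of NES was −0.01 with length and GC offsets, with library size only and with the replicate block and offsets together, and with library size only that of KRT18 was −0.0002 and of LMNB2 −0.0008. This scaling moved the median of all genes by −0.06. KRT8 was no longer called with offsets (0.10), library size only (0.08) or the likelihood ratio test (0.15), and ranged from 0.10 to 0.19 with a library left out. KRT19 was called without the filter on low counts (0.18) and PLEC as well (0.13). With a library left out, KRT19 ranged from 0.11 to 0.26, PLEC from 0.07 to 0.19, VIM from 0.03 to 0.14 and LMNB2 from 0.04 to 0.09, and a lone library is then assumed to vary like the other condition. The 3-D replicates varied more than the 2-D replicates (chi-square per degree of freedom 4.39 against 2.45). A call with a lone 3-D library therefore rests on the smaller spread of the 2-D pair.

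The labels do not say whether the shared replicate numbers pair the libraries. The correlation of same-numbered deviations was −0.00792 over all genes tested. This cannot settle whether the cultures were paired, because sampling noise enters each deviation. With the replicate block 3 of the 9 genes were called, KRT19 (0.18) and PLEC (0.13) with KRT8, and with block and offsets together also 3, KRT19 (0.15), KRT8 and LMNA (−0.12).

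The number of the 9 genes called, 1, was 0 with offsets, library size only or the likelihood ratio test, 3 without the filter, and 0 to 5 with a library left out. Over all genes, 1782 calls became 794 with DESeq2, 1139 with the likelihood ratio test and 974 to 2643 with a library left out. DESeq2 called 1 gene each among the other filaments, plakins, lamina partners and filament partners (it gave NEFM no adjusted p), and the likelihood ratio test 0 plakins and 1 each of lamina and filament partners. Library size only called 0 plakins, 5 lamina partners and 1 CaaX gene, offsets 1 plakin with or without the block, and thinned 2-D libraries 1 filament partner. With a library left out, calls ranged from 1 to 4 among the other filaments, 0 to 2 among plakins, 0 to 1 in the LINC complex, and 1 to 3 among both lamina and filament partners. The causes were not tested. With 2 libraries a condition, the log2 SEs of the 9 genes, 0.03 to 0.05, limit which differences can be called.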

Other observations

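Among 11 tested genes whose products bind or modify filament proteins, CDK1 and TCHP were called, in opposite directions. That is 18.2% of the 11, beside 7.90% of all genes tested. The median log2 fold change of the list was 0.05, or −0.01 when libraries were scaled by size alone. CDK1, the mitotic kinase that phosphorylates lamins and vimentin at cell division, fell from 117 and 119 normalized CPM in the 2-D libraries to 102 in both 3-D libraries. Its log2 fold change of −0.21 (SE 0.03, edgeR's quasi-likelihood test, BH-adjusted p = 0.00116) was called in all 18 alternatives. TCHP, trichoplein, a keratin-binding protein, had 34.7 and 32.4 in 2-D and 38.9 and 40.3 in 3-D grown cells, a log2 fold change of 0.24 (SE 0.06, edgeR's quasi-likelihood test, BH-adjusted p = 0.0298) that was not called without 2-D replicate 2 (0.19, adjusted p = 0.259), with library size only, with thinned 2-D libraries, by DESeq2 or by the likelihood ratio test, so that 13 of 18 alternatives called it.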
